A study of Mus musculus with 8 samples.

Results

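The miR-17, miR-18, miR-19 and miR-20 family was followed in the Argonaute-bound small RNAs of mouse brain. Its 9 members were taken by name, as every row of the deposited read table whose miRNA name was mmu-miR-17-5p, mmu-miR-17-3p, mmu-miR-18a-5p, mmu-miR-19a-3p, mmu-miR-19b-3p, mmu-miR-20a-5p, mmu-miR-93-5p, mmu-miR-106b-5p or mmu-miR-106b-3p. They are 9 of 895 miRNA names and 271 of 47204 read sequences in the table. The rule sets no threshold on a measured value, but the names were chosen with earlier results of these data known.

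RISC, the complex of an Argonaute protein and a short guide RNA, was pulled down from cortex and hippocampus with a peptide of GW182, a protein that binds Argonautes, and the bound RNA was sequenced as R-sRNAs (RISC-bound small RNAs). All 8 female mice carried the 5XFAD transgenes, human amyloid precursor protein and presenilin with familial Alzheimer's disease mutations under the neuronal Thy1 promoter. They differed in Rubicon, a protein that restrains autophagy: 4 libraries (het) came from 5XFADtg mice with 1 deleted Rubicon allele and 4 (ko) from 5XFADtg mice with both alleles deleted. Each library was 1 mouse. The study's results give an age of 6 months for this comparison, its methods 6 or 8 months, and the labels none. The results text and figure legend of the study count fewer mice here than the labels do, while its methods count 4 per genotype. All 8 labelled libraries were used. No mouse among these 8 lacked the transgenes or kept both Rubicon alleles, and small RNA reads do not measure the Rubicon transcript, so the genotype labels could not be checked against it.

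A miRNA pairs with target mRNAs mainly through its seed, the bases near its 5′ end. The miR-17-92a, miR-106b-25 and miR-106a-363 clusters are paralogs, copies of an ancestral cluster, and each is transcribed as a single precursor from which several hairpins are cut. The miR-17 seed group (miR-17-5p, miR-20a-5p, miR-93-5p and miR-106b-5p) and the miR-19 group are best known for repressing cell cycle inhibitors and pro-apoptotic mRNAs such as those of p21 and Bim. In the brain the clusters are known from neural progenitors.

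The mature sequences show which members share a seed and so would read the same targets. They are from RefSeq (GRCm38.p6), written 5′ to 3′ with bases 2 to 8 in capitals, and all 9 names matched. The first 4 share 1 seed, miR-18a-5p has its own, the miR-19 pair shares 1, and each of the 3p arms has its own.
miR-17-5p: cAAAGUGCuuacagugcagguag
miR-20a-5p: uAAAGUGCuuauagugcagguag
miR-93-5p: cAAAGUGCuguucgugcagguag
miR-106b-5p: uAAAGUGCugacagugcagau
miR-18a-5p: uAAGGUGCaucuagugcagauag
miR-19a-3p: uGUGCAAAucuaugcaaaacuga
miR-19b-3p: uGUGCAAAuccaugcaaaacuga
miR-17-3p: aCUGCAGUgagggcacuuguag
miR-106b-3p: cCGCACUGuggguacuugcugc

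Counting positions from 1 at the 5′ end and giving the base of miR-17-5p first, miR-20a-5p differed from miR-17-5p by C1U and C12U. miR-93-5p differed by U10G, A11U, C12U and A13C, and miR-106b-5p by C1U, U10G and G20A over the 21 nt compared. All of these lie outside the seed. miR-18a-5p differed by 6 bases, of which A4G is the only difference inside bases 2 to 8. The miR-19 pair differed by 1 base, U11C from miR-19a-3p to miR-19b-3p.

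Of the 9 members, 6 come from the hairpins Mir17, Mir18, Mir19a, Mir20a and Mir19b-1. On the plus strand these run from Mir17 at chr14:115043671-115043754 to Mir19b-1 at chr14:115044305-115044391 (GRCm38.p6), and all lie in an exon of the lincRNA gene Mir17hg at chr14:115042879-115046727. The other 3 come from Mir106b at chr5:138165737-138165818 and Mir93 at chr5:138165523-138165610, both on the minus strand inside Mcm7, which encodes a subunit of the replicative helicase (chr5:138164583-138172422). Mir106b overlapped no annotated exon, and Mir93 overlapped only a retained-intron transcript of Mcm7. miR-19b-3p has the same sequence from Mir19b-1 and from Mir19b-2 in the paralogous cluster on chromosome X (chrX:52741983-52742066, minus strand), so reads from these loci cannot be told apart, and miR-19b-3p is counted here with the Mir17hg cluster.

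The hairpins that gave reads of both arms as members are shown next with the 2 mature arms in capitals.
Mir17: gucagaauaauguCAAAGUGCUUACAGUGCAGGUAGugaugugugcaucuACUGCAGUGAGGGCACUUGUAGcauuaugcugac
Mir106b: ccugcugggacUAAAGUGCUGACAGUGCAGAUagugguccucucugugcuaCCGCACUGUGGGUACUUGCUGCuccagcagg

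The libraries held 509839 to 2634450 reads in het and 1010177 to 19878054 in ko, and the members had 2227 to 54228 reads per library. Values are CPM, counts scaled to 1000000 reads of a library, and 3 reads equalled 0.151 to 5.79 CPM. A read spans a whole miRNA, so CPM needed no correction for length. The neuronal markers miR-124-3p, miR-128-3p, miR-138-5p and miR-132-3p summed to 122947 to 177882 CPM in het and 137422 to 193264 CPM in ko, with all 4 detected in every library. The 6 markers of epithelium and choroid plexus summed to 5495 to 10028 CPM in het and 2792 to 5378 CPM in ko, with no overlap, and their part in any value below was not tested. Of these, miR-200a-3p, miR-200b-3p and miR-429-3p were lower in every ko library than in any het library. Their relative miR-141-3p overlapped (187.5 to 599.6 CPM in het, 3.69 to 418.5 CPM in ko). The share of all miRNAs that separated in this way was not counted. The choroid plexus marker miR-204-5p overlapped (2382 to 4665 CPM in het, 2109 to 4435 CPM in ko), and miR-211-5p had its higher values in ko (0 to 12.4 CPM in het, 8.82 to 47.7 CPM in ko). In these bulk samples fewer cells of a type and less miRNA per cell cannot be told apart.

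Together the members made up 0.324% of each library's CPM on average, with a range of 0.245% to 0.437%. The summed level was 3321 ± 884 CPM (SD, n = 4) in het and 3109 ± 383 CPM (SD, n = 4) in ko. By mean level over the 8 libraries miR-106b-5p stood at rank 112 of 895 miRNAs, miR-93-5p at 114 and miR-19b-3p at 133. miR-17-5p followed at 175, miR-20a-5p at 208, miR-19a-3p at 284, miR-18a-5p at 293, miR-106b-3p at 304 and miR-17-3p at 378. All 9 ranks lay in the upper part of the list, and the member for which the family is named was the fourth most abundant of the 9.

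**Figure D1:**
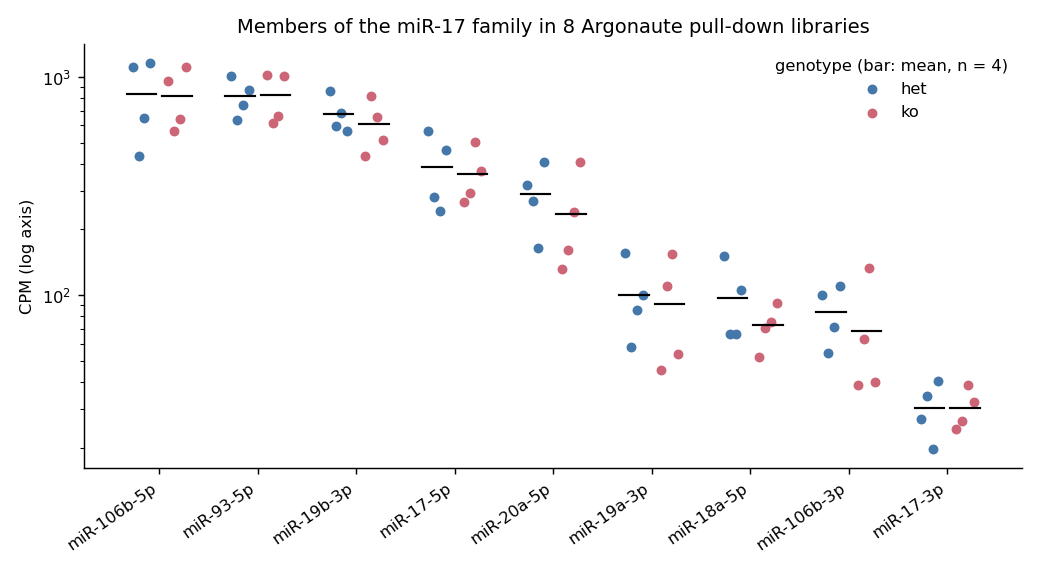
CPM on a log axis of the 9 members, ordered by mean level, in each het and ko library (points) with the mean of each genotype (bars, n = 4). The genotypes overlap for every member, and the levels span 19.8 CPM (miR-17-3p) to 1155 CPM (miR-106b-5p).

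The miR-17 seed group held the most reads. miR-106b-5p was at 1116, 436, 646 and 1155 CPM in het replicates 1 to 4 and at 960.0, 563, 638 and 1114 CPM in ko replicates 1 to 4. miR-93-5p, from the same Mcm7 intron cluster, was at 1006, 636, 746 and 870.3 CPM in het and at 1024, 617.5, 659 and 1006 CPM in ko. Both were high in het replicates 1 and 4 and ko replicates 1 and 4 and low in het replicate 2 and ko replicate 2, in each genotype alike.

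miR-17-5p, the guide that names the family, was at 564, 281, 244 and 464 CPM in het and at 267, 294, 505 and 372 CPM in ko. miR-20a-5p, which lies 3 hairpins further along the same precursor, was at 319, 270.3, 164 and 409 CPM in het and at 132, 160.3, 241 and 407 CPM in ko. Its lowest pair of libraries was ko and its highest pair was 1 of each genotype. The 4 miRNAs of the seed group summed to 2332 ± 720 CPM (SD, n = 4) in het and 2240 ± 535 CPM (SD, n = 4) in ko.

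miR-18a-5p, whose seed differs from that of miR-17-5p by a single base, was at 151, 66.0, 66.0 and 105.5 CPM in het and at 52.2, 71.0, 75.6 and 92.1 CPM in ko. All 4 ko libraries lay below the het mean of 97.0 CPM, but 3 of them lay inside the het range.

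Of the miR-19 group, miR-19b-3p was at 861, 598, 686 and 567 CPM in het and at 434, 817, 657 and 515 CPM in ko. miR-19a-3p, which shares its seed, was at 156, 57.8, 85.0 and 99.9 CPM in het and at 45.2, 111, 154 and 53.9 CPM in ko. miR-19b-3p exceeded miR-19a-3p in every library, and the log2 ratio of miR-19a-3p to miR-19b-3p averaged -2.86 (SD 0.46, n = 8). Since miR-19b-3p has a locus in 2 clusters, that difference is not a comparison of 2 hairpins of 1 precursor.

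The 3p arms, the less abundant strands of 2 hairpins, had the lowest mean levels of the 9 members. miR-17-3p was at 27.0, 34.4, 19.8 and 40.5 CPM in het and at 24.3, 26.5, 38.7 and 32.3 CPM in ko, which was as few as 14 reads in a library. miR-106b-3p was at 100.4, 54.3, 71.4 and 109.6 CPM in het and at 38.7, 62.7, 134 and 40.2 CPM in ko. The ko libraries held both its lowest values and, in ko replicate 3, its highest.

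Neighbours in the order of mean level were compared within libraries. miR-106b-5p and miR-93-5p did not separate: miR-106b-5p was the higher in 3 of 8 libraries, and the log2 ratio averaged -0.04 (SD 0.28, n = 8). miR-19a-3p and miR-18a-5p also did not separate (4 of 8 libraries), nor did miR-18a-5p and miR-106b-3p (5 of 8 libraries). miR-93-5p exceeded miR-19b-3p in 7 of 8 libraries and miR-17-5p exceeded miR-20a-5p in 7 of 8, with log2 ratios of 0.36 (SD 0.54) and 0.56 (SD 0.46). In all 8 libraries miR-19b-3p exceeded miR-17-5p, miR-20a-5p exceeded miR-19a-3p, and miR-106b-3p exceeded miR-17-3p.

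The share of the family held by each seed moved between libraries more than between genotypes. The miR-17 seed group held 69.6% ± 4.5 (SD, n = 4) of the members' CPM in het and 71.4% ± 10.1 in ko. It held 80.03% in ko replicate 1 and 79.8% in ko replicate 4, and 60.0% in ko replicate 2. The miR-19 group was the converse, with 16.1% and 15.7% in ko replicates 1 and 4 and 34.1% in ko replicate 2, against 17.5% to 28.3% in het. miR-18a-5p held 2.59% ± 0.48 (SD, n = 8) and the 3p arms held 3.35% ± 1.12 (SD, n = 8). These shares are a description, with no test.

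**Figure D2:**
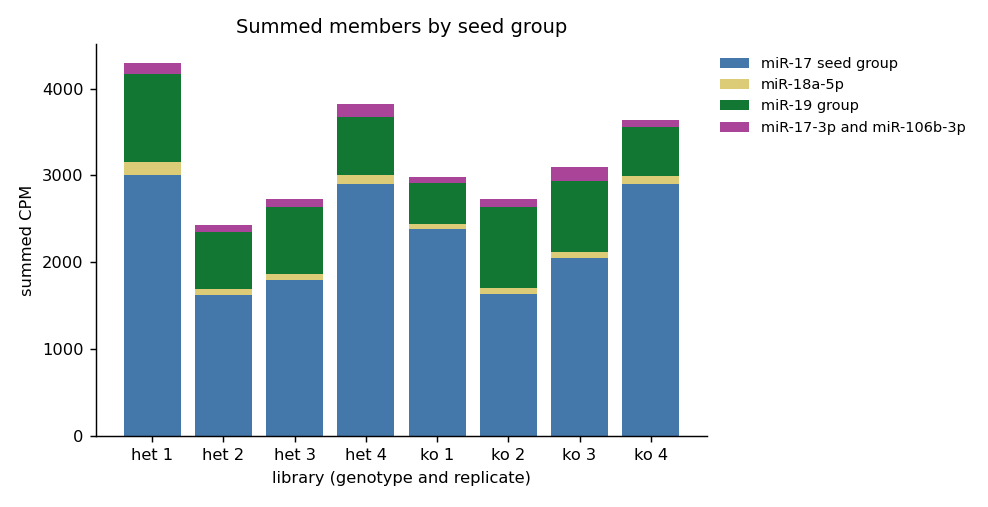
Summed CPM of the members in each library (x axis, genotype and replicate), stacked by seed group. The miR-17 seed group makes up 60.0% (ko 2) to 80.03% (ko 1) of each bar, and the whole bars run from 2434 CPM (het 2) to 4299 CPM (het 1).

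The clusters were also compared by their summed members. Members from Mir17hg summed to 1489 ± 335 CPM (SD, n = 8) and those from Mcm7 to 1726 ± 453 CPM (SD, n = 8). The log2 ratio of Mir17hg to Mcm7 members was -0.10, 0.21, -0.21 and -0.34 in het replicates 1 to 4 and -1.08, 0.25, 0.22 and -0.55 in ko replicates 1 to 4. It was above 0 in 3 of 8 libraries, and the ko libraries took both the lowest and the highest value. Leaving out 1 library at a time, the mean log2 ratio of the members ran from -0.26 (without ko replicate 2) to -0.073 (without ko replicate 1). With all listed arms of each cluster counted, and miR-92a-3p counted wholly with Mir17hg, the mean over the 8 libraries went from -0.20 to 0.037. Neither cluster is therefore given as the higher.

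Pairs of members were compared by the SD of their log2 ratio over the 8 libraries, where a small SD means that they went up and down together. The steadiest pairs were miR-17-5p with miR-18a-5p (SD 0.28), neighbours in Mir17hg, and miR-93-5p with miR-106b-5p (SD 0.28), neighbours in Mcm7 that also share a seed. The least steady pair was miR-19a-3p with miR-106b-5p (SD 0.87). By median SD, pairs of the same cluster and seed stood at 0.46 (3 pairs) and pairs of the same cluster with different seeds at 0.50 (15 pairs). Pairs of different clusters stood at 0.56 where they shared a seed (4 pairs) and at 0.57 where they did not (14 pairs). Among pairs sharing a seed the SDs were 0.28 to 0.46 within a cluster and 0.49 to 0.62 between clusters, which did not overlap. Among pairs with different seeds they were 0.28 to 0.85 within a cluster and 0.30 to 0.87 between clusters, which did. The pairs reuse the same 9 miRNAs and 8 libraries, so this is a description.

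Non-members whose levels most resembled those of 4 members were found by Pearson's r of log2(CPM + 1) over the 8 libraries among 454 non-member miRNAs. For miR-17-5p they were miR-378a-5p (r = 0.94), miR-99b-5p (r = 0.91) and miR-361-3p (r = 0.88), and for miR-18a-5p they were miR-107-3p (r = 0.91), miR-467b-5p (r = 0.89) and miR-29a-5p (r = 0.88). For miR-19b-3p they were miR-409-5p (r = 0.82), miR-30b-3p (r = 0.78) and miR-27a-3p (r = 0.77), and without the 2 libraries farthest from the median the value for miR-30b-3p was 0.18. For miR-93-5p they were miR-598-3p (r = 0.81), miR-34a-5p (r = 0.79) and miR-666-3p (r = 0.76). The points share the library and its depth, and each list is the top 3 of many.

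The comparison of the genotypes asked whether loss of the second Rubicon allele went with a different level of the family in RISC. No difference was found at this depth and number of mice. By limma on log2(CPM + 1), fitted to the 463 miRNAs that averaged 10 CPM or more, 0 of 9 members passed a Benjamini-Hochberg adjusted p of 0.05, where 6 of 463 miRNAs (1.3%) did. At an unadjusted p of 0.05 it was again 0 of 9 members, where 7.34% of all miRNAs passed. edgeR and DESeq2 on the reads recovered from the CPM also called 0 of 9, where they called 4 and 9 of all miRNAs.

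The log2 fold changes, ko minus het, lay between -0.42 for miR-106b-3p (SE 0.42, 95% interval -1.33 to 0.49, limma adjusted p = 0.975) and 0.03 for miR-17-3p (SE 0.36, interval -0.76 to 0.81). For the most abundant members the intervals were -0.74 to 0.79 for miR-106b-5p, -0.59 to 0.59 for miR-93-5p and -0.77 to 0.40 for miR-19b-3p. For miR-17-5p the difference was -0.07 (SE 0.32, interval -0.77 to 0.63). For miR-20a-5p it was -0.37 (SE 0.38, interval -1.20 to 0.46) and for miR-18a-5p -0.35 (SE 0.35, interval -1.11 to 0.41). Single libraries moved several of these values: leaving out 1 library at a time, miR-106b-3p ran from -0.80 (without ko replicate 3) to -0.21 (without ko replicate 1), miR-20a-5p from -0.68 (without ko replicate 4) to -0.14 (without ko replicate 1) and miR-18a-5p from -0.51 (without het replicate 3) to -0.11 (without het replicate 1). With all 8 libraries, an increase by a log2 fold of 1 lay outside the interval of every member. A decrease of that size lay outside it for miR-17-5p, miR-17-3p, miR-19b-3p, miR-93-5p and miR-106b-5p, but inside it for miR-18a-5p, miR-19a-3p, miR-20a-5p and miR-106b-3p.

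The members' median log2 difference was -0.18, beside -0.09 for all 463 miRNAs tested, of which 59.4% had a negative value. Relative to that median the members ran from -0.33 to 0.11, with 5 below it and 4 above. Centring each library on its median raised the median of all miRNAs by 0.22, and the difference of miR-17-5p (0.15), miR-19b-3p (0.04) and miR-19a-3p (0.004) then became positive, so no direction is given for them. Without ko replicates 1 and 2, the libraries with over 5000000 reads, that of miR-17-5p was 0.24 and that of miR-20a-5p 0.18.

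**Figure D3:**
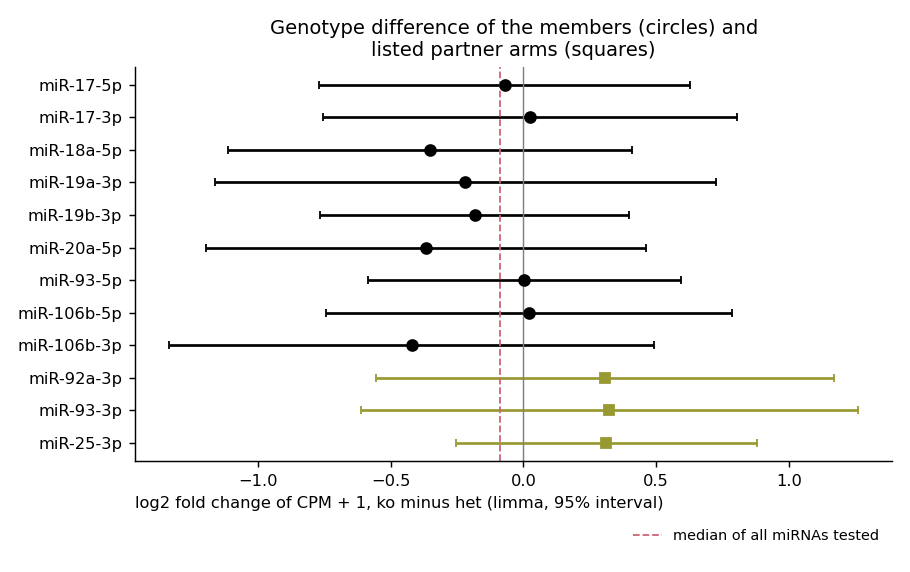
Log2 fold change of CPM + 1 (x axis, ko minus het) from limma with its 95% interval for the 9 members (circles) and the 3 tested partner arms (squares), with 4 libraries per genotype. Every interval includes 0, and the dashed line is the median of all miRNAs tested at -0.09.

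Other arms of the 3 clusters were read from a list of 19 names, of which 12 were in the table and 3 reached the level for testing. miR-92a-3p, the last guide of the miR-17-92a precursor, had a mean of 894 CPM, and miR-25-3p, the third guide of the Mcm7 cluster, 538 CPM. miR-92a-3p is a single name for the hairpins Mir92-1 in Mir17hg and Mir92-2 on chromosome X, and is counted here with Mir17hg. miR-93-3p, the partner strand of miR-93-5p, had 31.3 CPM. The genotype test passed for 0 of the 3 by limma (adjusted p = 0.947 to 0.975), 0 at an unadjusted p of 0.05, and 0 by edgeR or DESeq2, beside the same shares of all miRNAs (1.3% adjusted and 7.34% unadjusted by limma). In ko replicate 3 miR-92a-3p was at 2322 CPM and in the other 7 libraries between 554 and 928 CPM. The same library held the highest miR-25-3p (870.5 CPM), miR-93-3p (59.3 CPM) and miR-106b-3p (134 CPM) of the 8, whereas its miR-93-5p (659 CPM) and miR-106b-5p (638 CPM) were below their means. Several marker miRNAs outside these clusters also peaked there, such as miR-92b-3p (5095 CPM), miR-150-5p (4136 CPM) and miR-145a-5p (3618 CPM). Others, such as miR-124-3p, did not.

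The remaining 9 arms in the table averaged at most 4.67 CPM. Among them were miR-20b-5p (4.67 CPM) and miR-106a-5p (2.52 CPM), the miR-17 seed group of the chromosome X cluster. They differ from miR-17-5p by U10C and C12U and by U10A, so a read can be assigned to them only where it covers those bases.

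The arms of a hairpin were compared because their ratio does not depend on the scaling of a library. For miR-17 the 5p arm exceeded the 3p arm 20.9-, 8.18-, 12.3- and 11.4-fold in het replicates 1 to 4 and 11.0-, 11.1-, 13.1- and 11.5-fold in ko replicates 1 to 4. On the log2 scale this was 3.64 ± 0.56 (SD, n = 4) in het and 3.54 ± 0.11 in ko, and the difference of -0.10 did not pass a two-sided exact permutation test (p = 0.771).

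For miR-106b the 5p arm exceeded the 3p arm 11.1-, 8.03-, 9.05- and 10.5-fold in het. In ko the excess was 24.8-, 8.98-, 4.78- and 27.7-fold, so that ko replicates 1 and 4 lay above every het library and ko replicate 3 below every one. The log2 ratio was 3.26 ± 0.21 (SD, n = 4) in het and 3.71 ± 1.22 in ko, and the difference of 0.45 did not pass the two-sided exact permutation test (p = 0.40). It was 0.93 without ko replicate 3 and 0.088 without ko replicate 4. Adjusted over these 2 tests, both exact permutation p-values were 0.771, and the smallest exact p that 4 against 4 libraries allow is 0.0286.

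**Figure D4:**
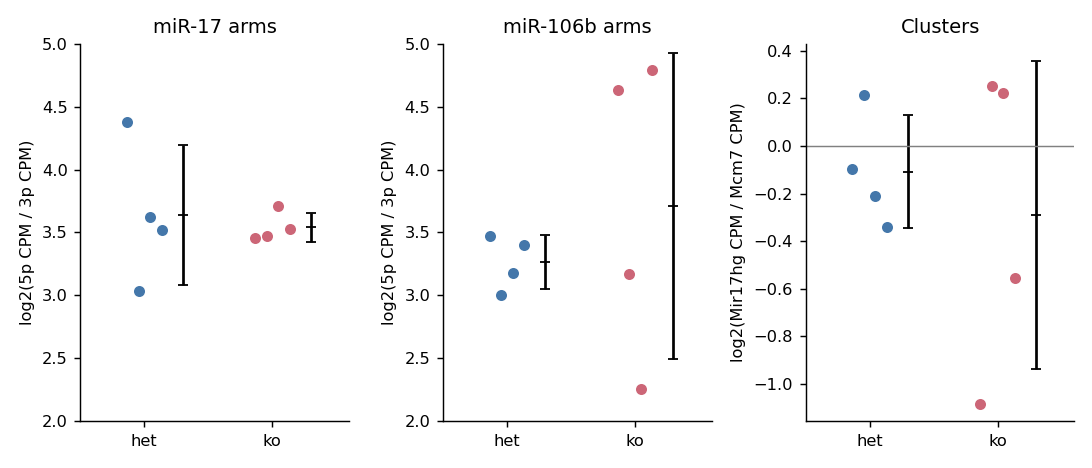
Log2 ratio of 5p to 3p CPM of miR-17 (left) and miR-106b (middle) and of Mir17hg to Mcm7 members (right) in each library, with the mean and SD of each genotype (bars, n = 4). For miR-106b the het libraries sit within 3.005 to 3.47 and the ko libraries spread from 2.26 to 4.79.

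The seed carried by each read was also followed, since the study works with the 6mer seed (bases 2 to 7) and its viability score. The score is the percent viability of cells given a short RNA with that seed, averaged by the authors over 3 mouse cell lines, and a low score means a toxic seed. AAAGUG, the seed of the miR-17 group, had a score of 84.4, GUGCAA of the miR-19 group 75.8, AAGGUG of miR-18a-5p 73.6 and CUGCAG of miR-17-3p 86.7. CGCACU of miR-106b-3p had 24.0, so the 2 arms of Mir106b carried a seed at each end of the scale. Weighted by CPM the members had a mean score of 80.6 ± 0.97 (SD, n = 8 libraries), against 56.4 ± 0.77 for all reads.

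Seeds with a score above 80 made up 71.1% ± 6.99 (SD, n = 8) of the members' CPM and 8.77% ± 0.73 of all CPM, and AAAGUG reads were 2.61% ± 0.64 of all CPM above 80. Seeds with a score below 40 made up 2.36% ± 0.97 of the members' CPM and 12.7% ± 1.4 of all CPM. Among the members this low share was highest in ko replicate 3 (4.18%) and lowest in ko replicate 4 (1.11%) and ko replicate 1 (1.26%). Of the members' main seeds only CGCACU of miR-106b-3p scored below 40. The low share thus largely restates the level of miR-106b-3p in those libraries.

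Members carried nearly all of 4 of their 5 seeds. They held 99.2% of AAAGUG reads by CPM, 98.3% of AAGGUG, 97.3% of GUGCAA and 92.6% of CGCACU. Of GUGCAA the largest other carrier was miR-301a-3p (8.93 CPM). CUGCAG was shared: miR-17-3p held 49.7% of it, and miR-666-3p held 22.5 CPM. Summed over all reads with a seed, 0 of these 5 seeds passed limma at an adjusted p of 0.05 or at an unadjusted p of 0.05, where 0.303% and 5.76% of the 990 seeds tested did, and 0 passed by edgeR or DESeq2. The largest difference was -0.46 for CGCACU (SE 0.39, interval -1.29 to 0.37, limma adjusted p = 0.960). It was -0.82 without ko replicate 3, -0.22 without ko replicate 1 and -0.07 without both libraries over 5000000 reads.

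The 5′ end sets the seed, and it was nearly fixed. Between 92.4% (miR-19a-3p) and 100% (miR-18a-5p) of a member's CPM began at the RefSeq 5′ end. Of miR-17-5p, 3.70% ± 1.63 (SD, n = 8) began 1 nt upstream, and its second seed, CAAAGU, had a score of 55.1. Of miR-19a-3p, 6.54% carried the seed UGUGCA (score 70.6). miR-18a-5p was read with a single seed in every library.

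The most abundant read of each member is shown as sequenced, with the 6mer seed in capitals, because its 3′ end did not always match the RefSeq sequence given above.
miR-17-5p: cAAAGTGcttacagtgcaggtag
miR-20a-5p: tAAAGTGcttatagtgcaggtag
miR-93-5p: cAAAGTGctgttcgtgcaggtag
miR-106b-5p: tAAAGTGctgacagtgcagata
miR-18a-5p: tAAGGTGcatctagtgcagatag
miR-19a-3p: tGTGCAAatctatgcaaaactga
miR-19b-3p: tGTGCAAatccatgcaaaactg
miR-17-3p: aCTGCAGtgagggcacttgt
miR-106b-3p: cCGCACTgtgggtacttgctg

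The leading read of miR-17-5p (169 CPM), miR-20a-5p (130.4 CPM) and miR-93-5p (442 CPM) was the RefSeq sequence in all 8 libraries. That of miR-106b-5p (318 CPM) was 1 nt longer and led in 7 of 8 libraries. That of miR-19b-3p (250.0 CPM) was 1 nt shorter and led in 4 of 8 libraries, the full sequence leading in the other 4. For miR-18a-5p (26.7 CPM) and miR-19a-3p (36.8 CPM) the full RefSeq sequence had the highest mean but led in only 3 of 8 libraries each, with a shorter read leading in the other 5. For miR-17-3p (6.44 CPM) it was 2 nt shorter and led in 3 of 8, as did the full sequence (6.13 CPM), and for miR-106b-3p (21.0 CPM) 1 nt shorter and led in 2 of 8, while the read 2 nt shorter (18.1 CPM) led in 4 of 8.

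The 3′ ends differed between members. Tails that do not match the hairpin were on 21.4% ± 3.0 (SD, n = 8) of miR-17-5p, 21.6% ± 4.2 of miR-20a-5p, 19.0% ± 3.5 of miR-106b-5p and 15.2% ± 5.0 of miR-93-5p. They were on 5.41% ± 2.91 of miR-18a-5p, 5.31% ± 1.97 of miR-19b-3p and 3.42% ± 2.58 of miR-19a-3p. The 3p arms had 28.5% ± 11.9 (miR-17-3p, the highest share of the 9) and 16.3% ± 8.1 (miR-106b-3p). In the miR-17 seed group such tails were of U only on 7.93% ± 1.77 of the CPM and of A only on 9.18% ± 1.51, whereas tails of A only were at 0.60% on miR-19b-3p and were not seen on miR-19a-3p. A tail was counted as any end of up to 3 bases past the last base that matched the hairpin, so an added base that happens to match the genome is counted as templated.

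Templated reads shorter than RefSeq were 64.1% of miR-18a-5p, 59.9% of miR-19b-3p and 54.0% of miR-19a-3p, against 25.1% to 29.7% of miR-17-5p, miR-20a-5p and miR-93-5p and 11.9% of miR-106b-5p. They were 33.6% of miR-17-3p and 66.2% of miR-106b-3p, which thus had both many tails and the most shortened reads. The share of tails in the miR-17 seed group was 18.3% ± 2.4 (SD, n = 4) in het and 18.1% ± 2.5 in ko. These shares are a description of 9 sequences, with no test.

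**Figure D5:**
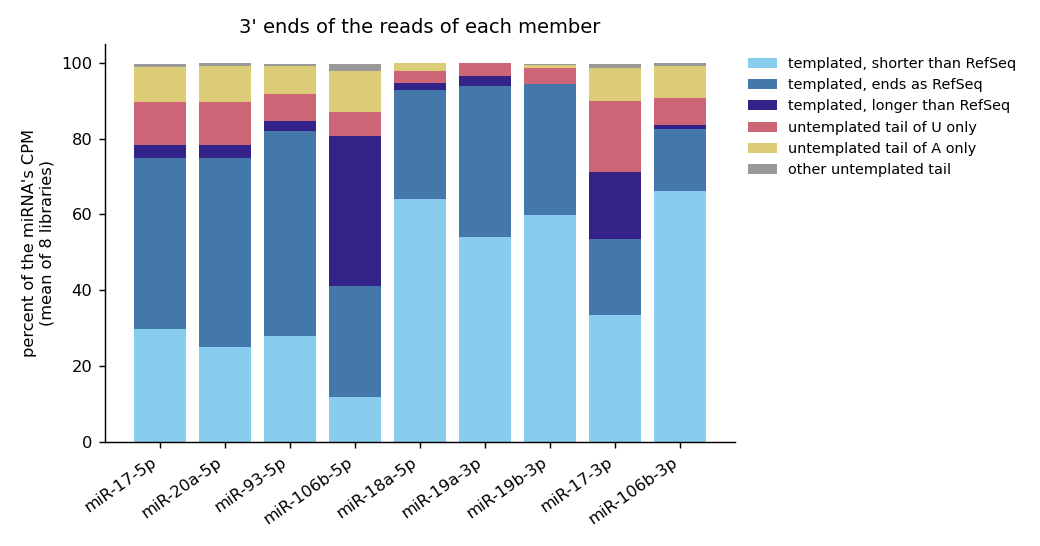
Percent of each member's CPM (y axis, mean of 8 libraries) by the 3′ end of the read, relative to the RefSeq mature sequence and the hairpin. Untemplated tails take 15.2% to 21.6% of the miR-17 seed group, 3.42% to 5.41% of miR-18a-5p and the miR-19 pair, and 28.5% and 16.3% of miR-17-3p and miR-106b-3p. miR-106b-5p has the largest share of longer templated reads.

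Single read sequences were tested in the same way. Of the members' 271 sequences, 42 had a mean of at least 10 CPM, none of them from miR-17-3p. By limma 0 of 42 passed an adjusted p of 0.05, where 0.485% of the 3299 sequences tested did, and edgeR and DESeq2 also called 0. At an unadjusted p of 0.05 it was 1 of 42 (2.38%), where 5.3% of all did. That read was the full 23-nt miR-18a-5p shown above, at 69.5, 28.9, 12.0 and 42.4 CPM in het and at 6.36, 15.7, 22.8 and 15.7 CPM in ko, with a log2 difference of -1.15 (SE 0.53, limma adjusted p = 0.931). The genotypes overlapped.

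The length of miR-18a-5p was then looked at because of that read. Reads of 23 nt or longer were 48.7%, 45.8%, 22.4% and 45.2% of miR-18a-5p in het replicates 1 to 4 and 16.3%, 25.96%, 33.0% and 22.3% in ko replicates 1 to 4. All 4 ko libraries were thus below 3 of the het libraries, and het replicate 3 was inside the ko range. Over all miRNA reads the same share was 19.2% to 22.6% in het and 20.03% to 22.5% in ko. This share was chosen after its values were seen and has no test.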

How the data were processed

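Argonaute-bound RNA was size-selected on a gel (19 to 35 nt per the labels) and sequenced by the authors on an Illumina HiSeq instrument, and the deposited reads are 15 to 31 nt long. Per the study's methods and the submitters' processing notes, reads were trimmed with Trim Galore, compiled into a table of read sequences, stripped of rare and artificial sequences and matched to lists of mouse small RNAs; the genome build of the miRNA list is not given in the sources used here. The deposited values are CPM, scaled by the authors to the reads of each library, and each CPM was a whole multiple of the value of 1 read (100% of values within 0.05 reads), so reads were recovered. The viability score of each seed was also supplied by the authors as a mean over 3 mouse cell lines. The authors deposited a row sum of the normalized signal too, which was not used.

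CPM were summed by miRNA name, by 6mer seed and by read. The genotypes were compared with limma 3.58.1 (R 4.3.3) on log2(CPM + 1), keeping features with a mean of at least 10 CPM, with moderated variances (trend and robust) and Benjamini-Hochberg adjustment over all features. edgeR 4.0.16 (TMM, quasi-likelihood) and DESeq2 1.42.0 on recovered reads were alternatives, with other pseudocounts, filters, centring and libraries left out. Arm ratios had exact permutation tests (scipy 1.17.1). The fits were tested on simulated data.

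The members are the 9 listed names. Other arms came from a list of 19 names, look-alike miRNAs were the 3 highest by r for 4 members, and reads were named if they led a member or passed the adjusted threshold. The 1 read described at an unadjusted p, and read lengths, were chosen after their values were seen. The members and lists were chosen with earlier results of these data known. Read ends were placed on RefSeq hairpins (GRCm38.p6, annotation GENCODE M21). Each library is a different mouse. The intervals given are those of the limma log2 differences, and they rest on the variation between libraries of a genotype. No interval is given for a count or a floor. The reads carry no molecular identifiers.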

Additional observations from a re-analysis of the deposited data

Results flagged for a closer look

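One value stood apart from its group. miR-92a-3p, counted here with the miR-17-92a precursor and not one of the 9 members, was at 2322 CPM in ko replicate 3, and the nearest ko library was at 753 CPM. Its gap to that library was 0.888 of the range of the 4 ko libraries, above Dixon's 95% critical value for a group of that size. This was 1 of 48 groups of 4 libraries examined, where chance alone would be expected to mark 2.4. No level, seed or share of the 9 members and neither arm ratio was marked.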

How the results depend on the processing

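No member tested passed the adjusted threshold under any alternative tried; all 9 were tested except with a mean of at least 100 CPM, where 5 were. Of the counts of calls over all features tested (6 miRNAs, 3 seeds and 16 reads), the replicate block gave 10 miRNAs and 26 reads, DESeq2 5 seeds and 27 reads, edgeR 1 seed, a pseudocount of 0.1 CPM 1 seed, a mean of at least 1 CPM 35 reads and of at least 100 CPM 5 reads, and leaving out the 2 deepest libraries 9 reads. Leaving out each library in turn gave 4 to 9 miRNAs, 0 to 7 seeds and 9 to 20 reads. The numbers in the labels are not shared mice, since each library is a different mouse. Deviations of same-numbered libraries correlated at 0.04, 0.29, -0.18 and 0.25. Only for number 2 was this above the highest correlation with other numbers. With 4 libraries per genotype these values cannot show whether same-numbered libraries shared a batch, and the labels name none. Exact sign flips over the 4 numbered pairs of arm ratios cannot give a p below 0.125, so they say nothing of stability (exact p = 1 for miR-17 and 0.375 for miR-106b).

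Signs that changed all belonged to differences that passed no test. Centring gave 0.15 for miR-17-5p, 0.0038 for miR-19a-3p, 0.039 for miR-19b-3p and 0.047 for the seed AAAGUG. edgeR gave 0.015 for miR-17-5p and 0.017 for AAAGUG, and DESeq2 0.037 and 0.019. Without the 2 deepest libraries miR-17-5p was 0.24, miR-20a-5p 0.18 and AAAGUG 0.10. Leaving out each library in turn gave -0.27 to 0.14 for miR-17-5p, -0.16 to 0.17 for miR-17-3p, -0.53 to 0.054 for miR-19a-3p, -0.11 to 0.13 for miR-93-5p, -0.26 to 0.21 for miR-106b-5p, -0.16 to 0.53 for miR-92a-3p, -0.20 to 0.092 for AAAGUG and -0.030 to 0.25 for CUGCAG. The miR-17 arm difference ran from -0.30 to 0.15 and that of miR-106b from 0.088 to 0.93. With every listed arm counted, a larger total by construction, the share of the miR-17 seed group was 49.1%, of miR-18a-5p 1.81% and of the miR-19 group 16.2%, and the mean log2 ratio of Mir17hg to Mcm7 arms was 0.037 in place of -0.20. The cause of the other changes was not tested. Among the 9 members depth limits miR-17-3p most, with as few as 14 reads in a library.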
